A study of Mus musculus with 2 samples.

Results

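Cytoplasmic actin and its partners form one of the most abundant gene groups of an embryonic tissue, and 9 of them were followed here in the limb of the mouse embryo. They are the 2 cytoplasmic actins Actb and Actg1, the profilins Pfn1 and Pfn2, the cofilins Cfl1 and Cfl2, the thymosins Tmsb4x and Tmsb10, and the intermediate filament gene Vim. They were chosen by symbol, and all 9 were matched to 1 gene ID each among the 55536 of the GENCODE M21 annotation. PolyA plus RNA of excised limbs was sequenced in 1 group of 2 biological replicates, from healthy B6NCrl embryos of both sexes at 12.5 days of development. Replicate 1 pooled limbs of 88 embryos and replicate 2 of 68 embryos, and both carry the same donor label of the strain. Oligo-dT priming of 10 ng of RNA with added ERCC spike-ins gave each library, and no allele or treatment was named. No second condition was given, so levels, transcripts and annotations are described with no p-value, and every SD is over n = 2 libraries.

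Actin monomers (G-actin) assemble into polar filaments (F-actin) that shape cells, carry their protrusions and, with myosin, contract them. Thymosins bind monomers and keep them out of filaments, whereas profilins bind monomers, promote their exchange of ADP for ATP and deliver them to growing ends. Cofilins bind ageing filaments, sever them and speed their disassembly, which returns monomers to the pool. In the limb bud these proteins serve the migration of mesenchymal and muscle precursor cells and the shaping of the epithelium. Vimentin, the Vim protein, forms intermediate filaments and is known as a marker of mesenchymal cells.

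The members of a pair encode alike proteins, and the sequences show what reads can tell apart. Below are the first 90 coding bases of Actb-201 and Actg1-202 and the whole coding sequence, without its stop codon, of Tmsb4x-201 and Tmsb10-203, taken from the GENCODE M21 transcripts on GRCm38 (mm10). Each is the most read protein-coding transcript of its gene, and capitals mark the bases at which the pair differs.
Actb-201: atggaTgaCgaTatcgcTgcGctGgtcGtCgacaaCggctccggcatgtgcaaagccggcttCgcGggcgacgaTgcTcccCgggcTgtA
Actg1-202: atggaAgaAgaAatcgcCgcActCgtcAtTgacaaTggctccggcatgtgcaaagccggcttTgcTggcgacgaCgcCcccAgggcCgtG
Tmsb4x-201: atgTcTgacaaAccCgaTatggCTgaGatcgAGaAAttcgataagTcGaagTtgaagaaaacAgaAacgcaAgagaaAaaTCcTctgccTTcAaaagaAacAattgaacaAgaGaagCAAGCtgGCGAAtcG
Tmsb10-203: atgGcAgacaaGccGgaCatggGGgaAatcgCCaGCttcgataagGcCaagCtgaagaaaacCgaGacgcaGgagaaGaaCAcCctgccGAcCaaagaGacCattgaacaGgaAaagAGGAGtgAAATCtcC

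Over their 1125 coding bases the 2 actins differed at 128, an identity of 88.6%. Of the 125 codons that differed, only 4 changed the encoded residue, all of them within the 90 bases shown. The longest identical run was 62 bases, and the coding sequences held no identical window of 100 bases in common. Over 132 bases the 2 thymosins differed at 40, an identity of 69.7%, and 11 of 27 differing codons changed the residue. The most read coding transcripts of the profilins and cofilins differ in coding length. Among transcripts of equal coding length, Pfn1-201 and Pfn2-201 differed at 161 of 420 coding bases (61.7% identity), and Cfl1-202 and Cfl2-201 at 142 of 498 (71.5% identity). Neither pair held an identical window of 100 bases.

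Levels are given in TPM, which divides the estimated reads of each annotated transcript by its effective length (here the length less 99 bases) and scales all values of a library to the same total. Reads mean expected counts, the estimated number of reads of a gene, not divided by length. Gene reads summed to 29633457 in replicate 1 and 30118921 in replicate 2, and spike-ins took 3.19% and 2.24% of all reads. Limb mesenchyme was represented, since 5 of 5 markers (Prrx1, Prrx2, Msx1, Twist1 and Pdgfra) reached 1 TPM in both libraries, at a summed 846 and 873 TPM. Markers of epithelium, muscle, endothelium, macrophages and red blood cells also reached 1 TPM, 5 of 5 for each type in both libraries, and 4 of 5 neuronal markers did. The values below therefore come from a mixed tissue, in which fewer cells of a type and less RNA per cell cannot be told apart.

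Together the 9 genes held 2.17% of gene TPM in replicate 1 and 2.26% in replicate 2, but 1.28% and 1.31% of gene reads. All 9 reached 100 TPM in both libraries. From the highest mean to the lowest, the order in TPM was Actb, Tmsb10, Actg1, Cfl1, Tmsb4x, Pfn1, Vim, Cfl2 and Pfn2, and it was the same in both libraries. Neighbours in that order were called apart where their log2 ratio passed 0.20 in both libraries. That limit is the 95th percentile of how far replicates 1 and 2 differed, in absolute log2 units, over the 1748 genes with a mean TPM of at least 100. It compares each gene with itself, so it does not cover what length or annotation does to a ratio of 2 genes. Of 8 neighbouring pairs 6 passed. In M21 TPM, Actg1 and Cfl1 (log2 ratios 0.14 and 0.16) and Cfl2 and Pfn2 (0.02 and 0.05) did not differ beyond that spread. In TPM of an earlier annotation, M4, the log2 ratios of these pairs were 0.41 and 0.44, and -1.06 in both libraries. Cfl1 and Tmsb4x, apart in M21 (0.47 and 0.45), had 0.21 and 0.17 in M4. The calls for these pairs thus depend on the annotation.

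**Figure D1:**
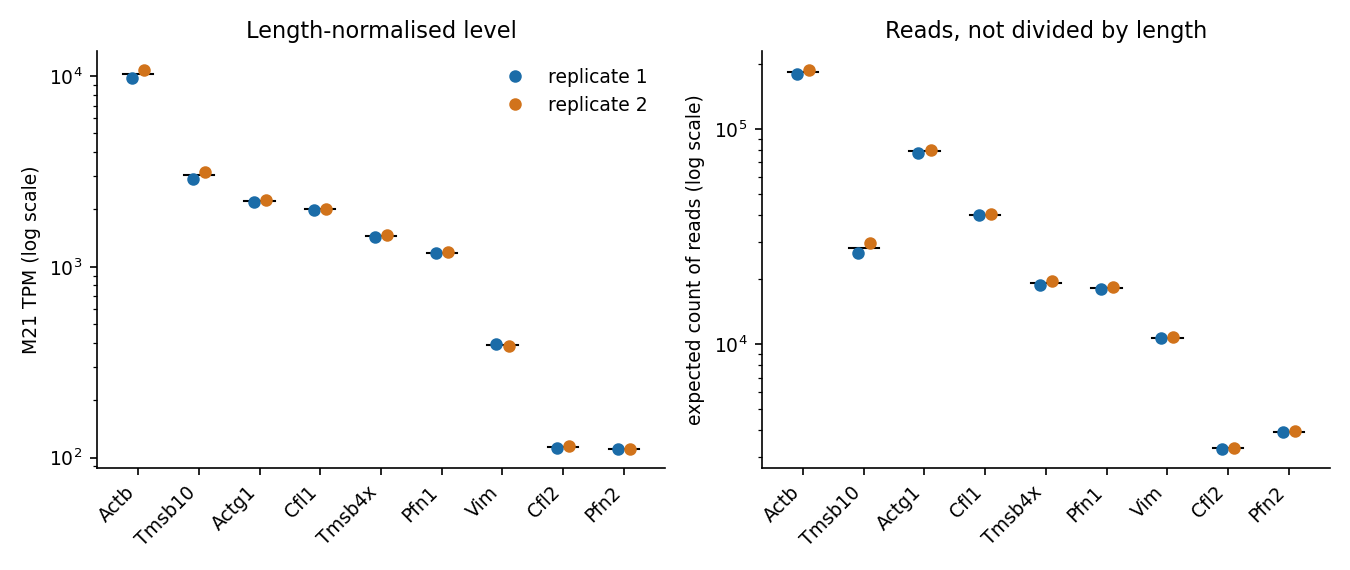
Level of each gene in TPM of the M21 annotation (left) and in reads not divided by length (right), both on log axes, with 1 point per library and a bar at the mean of the 2 libraries. Actb leads both panels, while Tmsb10 is in place 2 by TPM and in place 4 by reads, and the 2 libraries lie close together for every gene.

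Beta-actin, encoded by Actb (ENSMUSG00000029580.14, chromosome 5, 142903115 to 142906754 on the minus strand of GRCm38), stood at 9806 TPM in replicate 1 and 10797 TPM in replicate 2. It ranked 1st of all genes by TPM in both libraries and 3rd by reads, with 179808 and 188585 reads. In M4 TPM its rank was 6th in both libraries. In M21 Actb took 1.06% and 1.14% of gene TPM but 0.607% and 0.626% of gene reads. Gamma-actin, encoded by Actg1 (ENSMUSG00000062825.15, chromosome 11, 120345690 to 120348542, minus strand), stood at 2191 and 2244 TPM with 77237 and 80062 reads. Its rank was 28th by TPM and 7th by reads in both libraries, so that the 2 actins moved in opposite directions between the scales. Actg1 had a smaller share of TPM (0.237% in both libraries) than of reads (0.261% and 0.266%). Of the 9 genes, only Pfn2 shared this, with 0.0120% and 0.0117% of TPM against 0.0132% and 0.0131% of reads.

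In TPM, Actb stood above Actg1 4.47-fold in replicate 1 and 4.81-fold in replicate 2. The ratio of reads was smaller, at 2.33-fold and 2.36-fold. Over protein-coding transcripts alone the TPM ratio was 2.13-fold and 2.14-fold, and in the M4 tables, made by the authors from the same libraries with an earlier annotation, 2.29-fold and 2.32-fold. Beta-actin was thus the higher actin on each of these scales, and its lead was largest in M21 TPM over all entries. The mean log2 ratio was 2.21 ± 0.07 (SD, n = 2) in M21 TPM and 1.23 ± 0.01 in reads.

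Most of the TPM of Actb lay in a short noncoding entry. Actb-209, a processed transcript of 241 bases and 2 exons, spans 142903234 to 142903654 on chromosome 5. All of its 241 bases lie in the 3′ untranslated region of Actb-201, and the M4 annotation does not hold it. Actb-209 held 5192 TPM in replicate 1 and 6061 TPM in replicate 2, which is 52.9% and 56.1% of the TPM of Actb. Its reads were 14552 and 17162, only 8.09% and 9.10% of those of Actb. The coding transcript Actb-201, of 1920 bases, had 4585 and 4711 TPM from 164814 and 171033 reads. Of the gene's reads, 91.7% and 90.7% were therefore assigned to the transcript that makes beta-actin.

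Effective length sets what these reads are worth. Per base of effective length, Actb-209 had 102 and 121 reads and Actb-201 had 90.5 and 93.9. Per base of full length the order turned, to 60.4 and 71.2 reads for Actb-209 against 85.8 and 89.1 for Actb-201. Of the 142 windows of 100 bases in Actb-209, 74 occur in no other entry of the gene. In the M4 tables Actb-201 had 179405 and 188222 reads, which is 14591 and 17189 more than in M21. Those differences are close to the reads that M21 gave to Actb-209, while the reads of the whole gene were nearly equal between annotations (179817 and 188595 in M4). Which assignment lies nearer to the RNA of the limb was not tested.

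Such entries were rare by a limit of 300 bases, which was not set in the plan and to which no alternative was run. Of 13028 protein-coding genes at a mean of 1 TPM, 19 (0.146%) had a noncoding entry of 300 bases or less with at least 25% of the gene's TPM in both libraries, and Actb was 1 of them. It was the most abundant of the 19 at 10302 ± 701 TPM. Next came Csnk1g2, a casein kinase gene, at a mean of 197 TPM, with 31.6% and 25.6% of its TPM in an entry of 276 bases. Csnk1g2 was named after its values were seen.

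**Figure D2:**
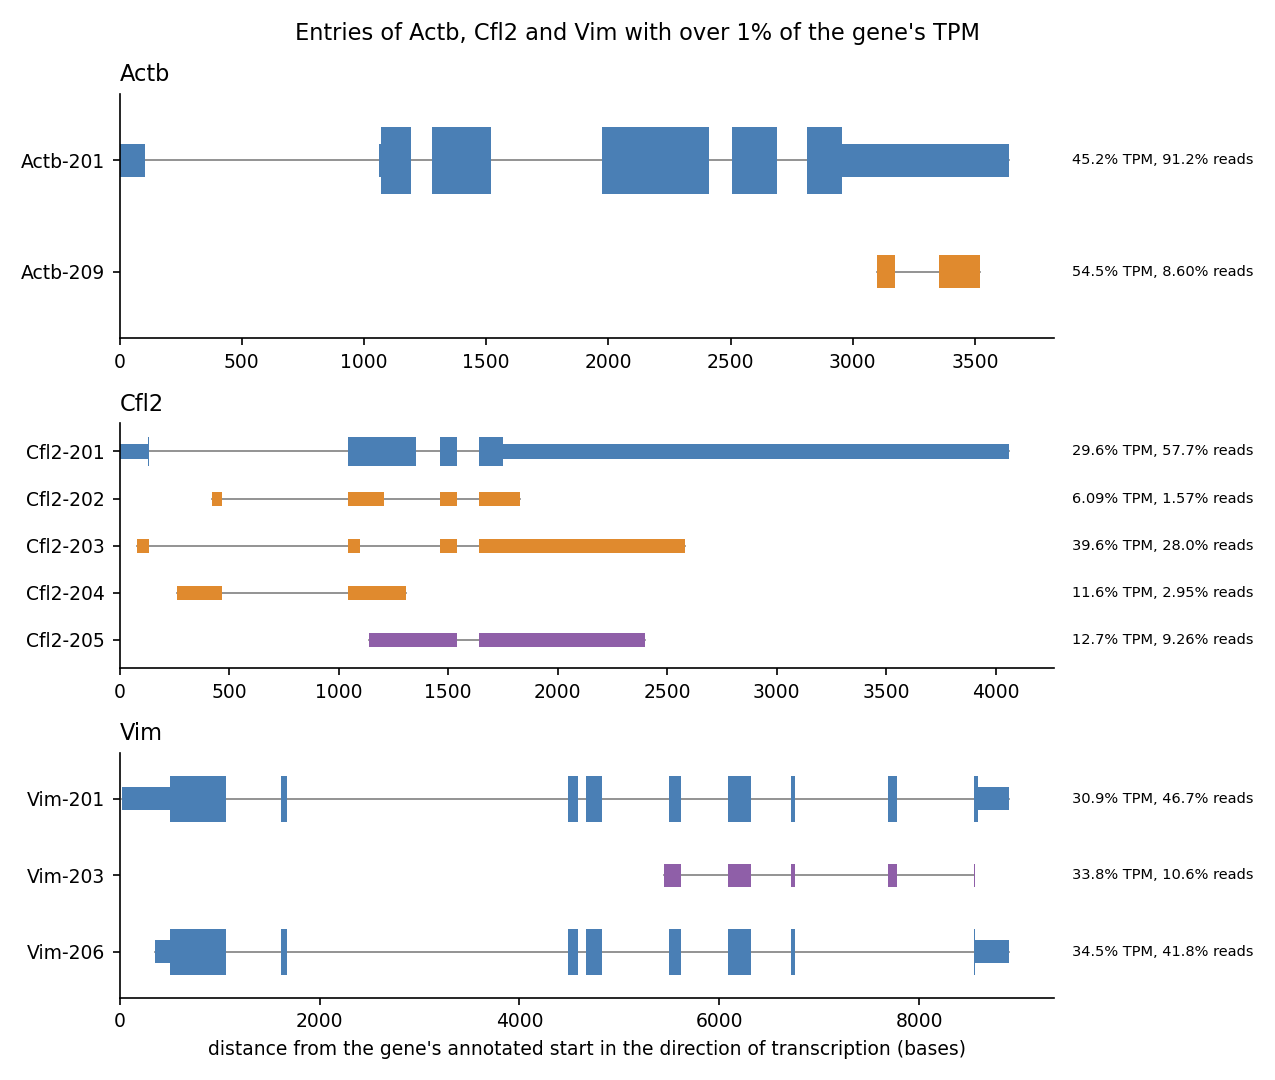
Annotated entries of Actb, Cfl2 and Vim with over 1% of the gene's TPM, drawn to scale from the gene's start, with tall boxes for coding exons, low boxes for other exons and lines for introns, in blue for protein-coding entries, orange for processed transcripts and purple for retained introns. Values at the right give each entry's mean share of TPM and of reads over 2 libraries; Actb-209 lies within the last exon of Actb-201 and holds 54.5% of TPM with 8.60% of reads.

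The thymosins, which hold monomers in reserve, stood in places 2 and 5 among the 9. Tmsb10 (ENSMUSG00000079523.8, chromosome 6, 72957347 to 72958748, minus strand) stood at 2871 TPM in replicate 1 and 3154 TPM in replicate 2, with 26664 and 29583 reads. Tmsb4x (ENSMUSG00000049775.16, chromosome X, 167207093 to 167209315, minus strand) stood at 1431 and 1473 TPM, with 18903 and 19646 reads. In TPM, Tmsb10 was higher than Tmsb4x 2.07-fold on average, with a log2 ratio of Tmsb4x to Tmsb10 of -1.05 ± 0.07 (SD, n = 2). In reads the lead of Tmsb10 was 1.46-fold. In each library and on both scales Tmsb10 was the higher thymosin.

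Short messages gave both genes a larger part of TPM than of reads. The main transcripts, Tmsb10-203 of 570 bases and Tmsb4x-201 of 768 bases, held 98.4% ± 0.105 and 99.3% ± 0.463 of their gene's TPM (SD, n = 2). The share of TPM over the share of reads was 3.44 and 3.38 for Tmsb10, the highest of the 9 genes, and 2.42 and 2.38 for Tmsb4x. Tmsb10 ranked 21st and 19th of all genes by TPM but 78th and 68th by reads. No transcript of either gene is annotated as noncoding.

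Profilin 1, the widely expressed profilin, was far above its neuronally enriched relative. Pfn1 (ENSMUSG00000018293.4, chromosome 11, 70651850 to 70654644, minus strand) stood at 1183 TPM in replicate 1 and 1192 TPM in replicate 2, with 18053 and 18371 reads. Pfn2 (ENSMUSG00000027805.16, chromosome 3, 57841895 to 57848079, minus strand) stood at 111 TPM in both, with 3915 and 3936 reads. The TPM ratio of Pfn1 to Pfn2 was 10.7-fold and 10.8-fold, and the ratio of reads 4.61-fold and 4.67-fold. Pfn1 was read almost wholly from Pfn1-201, with 98.3% ± 0.607 of its TPM.

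Pfn2 changed its main transcript between annotations at a nearly constant number of reads. In M21 its reads were assigned mostly to Pfn2-202, 2636 and 2672 of them, against 1108 and 1086 for Pfn2-201. In M4 the same 2 transcripts had 24.7 and 8.13 reads, and 3780 and 3825 reads. Annotated lengths differ as well, since Pfn2-201 has 1827 bases in M4 and 2342 bases in M21, while Pfn2-202 has 1879 in M21. In M21 the coding sequence has 273 bases in Pfn2-202 and 420 in Pfn2-201, and the coding sequences of M4 were not used here. All 4 entries are annotated as protein-coding, and the M4 TPM of Pfn2 was 123.5 in replicate 1 and 123.6 in replicate 2.

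The cofilins, which sever filaments, differed most within a pair. Cfl1 (ENSMUSG00000056201.8, chromosome 19, 5490455 to 5495201, plus strand), the non-muscle cofilin, stood at 1986 TPM in replicate 1 and 2014 TPM in replicate 2, with 39650 and 40326 reads. Cfl2 (ENSMUSG00000062929.8, chromosome 12, 54858809 to 54862877, minus strand), known for its role in muscle, stood at 112 and 115 TPM, with 3256 and 3311 reads. Cfl1 was higher 17.7-fold and 17.6-fold in TPM and 12.2-fold in reads in both libraries. In M4 the TPM ratio was 29.5-fold and 29.7-fold, and over protein-coding transcripts of M21 it was 58.2-fold and 60.3-fold. The direction held on all these scales, whereas the size ranged over a factor that no other pair showed.

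The entries of Cfl2 differ between annotations. M4 has 1 transcript of Cfl2 and M21 has 6, of which only Cfl2-201, with 2940 bases, is protein-coding. Cfl2-201 held 34.0 and 33.2 TPM, 30.2% and 29.0% of the gene, from 58.5% and 56.8% of its reads. Cfl2-203, a processed transcript of 1128 bases that holds 244 of the 498 coding bases, held 41.5% and 37.8% of TPM from 29.1% and 26.8% of reads. Cfl2-205, with a retained intron, held 10.5% and 14.9% of TPM, Cfl2-204 held 11.7% and 11.5%, and Cfl2-202 held 5.83% and 6.35%. None of the 375 windows of 100 bases in Cfl2-202 occurs in that entry alone. For Cfl2-203 the number is 98 of 1029, for Cfl2-205 209 of 1061 and for Cfl2-204 162 of 371.

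Cfl1 also gained entries, from 1 in M4 to 4 in M21, and was the only 1 of the 9 whose reads grew by over 10%. Its reads were 34247 and 34786 in M4, so that M21 gave 1.16-fold more in both libraries. Cfl1-201, the transcript of M4, held 69.0% and 68.5% of TPM in M21. Cfl1-204, protein-coding with 771 bases, held 25.4% and 26.2%, and Cfl1-202, protein-coding with 2354 bases, held 5.01% and 4.68% from 11.2% and 10.5% of reads. Of Cfl1-202, 1202 bases lie beyond the ends of Cfl1-201. The gene also overlaps Snx32, a sorting nexin gene on the opposite strand, over 2967 bases. Snx32 was listed at 282 and 318 reads, and the use of strand in the counting is not known here.

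Vim (ENSMUSG00000026728.9, chromosome 2, 13573927 to 13582826, plus strand) stood at 394 TPM in replicate 1 and 387 TPM in replicate 2, with 10675 and 10768 reads. Its level was divided almost evenly among 3 entries. Vim-206, protein-coding with 1777 bases, held 32.4% and 36.6% of TPM, and Vim-201, protein-coding with 2193 bases, held 31.7% and 30.1%. Vim-203, annotated with a retained intron and 535 bases long, held 34.9% and 32.7% of TPM but 11.1% and 10.2% of reads. Of the bases of Vim-203, 483 are coding bases of Vim-201 and 52 lie in its introns. M4 holds all 6 entries of Vim, and Vim-203 had a like number of reads there, 1227 and 1147 against 1183 and 1099 in M21.

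Across the 9 genes, 3 had at least 25% of their TPM outside protein-coding transcripts in both libraries, namely Actb, Cfl2 and Vim. By the same rule 25.8% of 13028 protein-coding genes did, so a count of 3 is near what genes in general showed. Counted in reads, only Cfl2 remained, with 41.5% and 43.2% of its reads outside protein-coding transcripts, against 14.8% of genes that pass on this scale. For Actb that share of reads was 8.24% and 9.23%, and for Vim 11.8% and 11.0%. In Actg1, Pfn1 and Cfl1 between 0.563% and 2.14% of TPM lay outside protein-coding transcripts, and in Pfn2, Tmsb4x and Tmsb10 none.

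**Figure D3:**
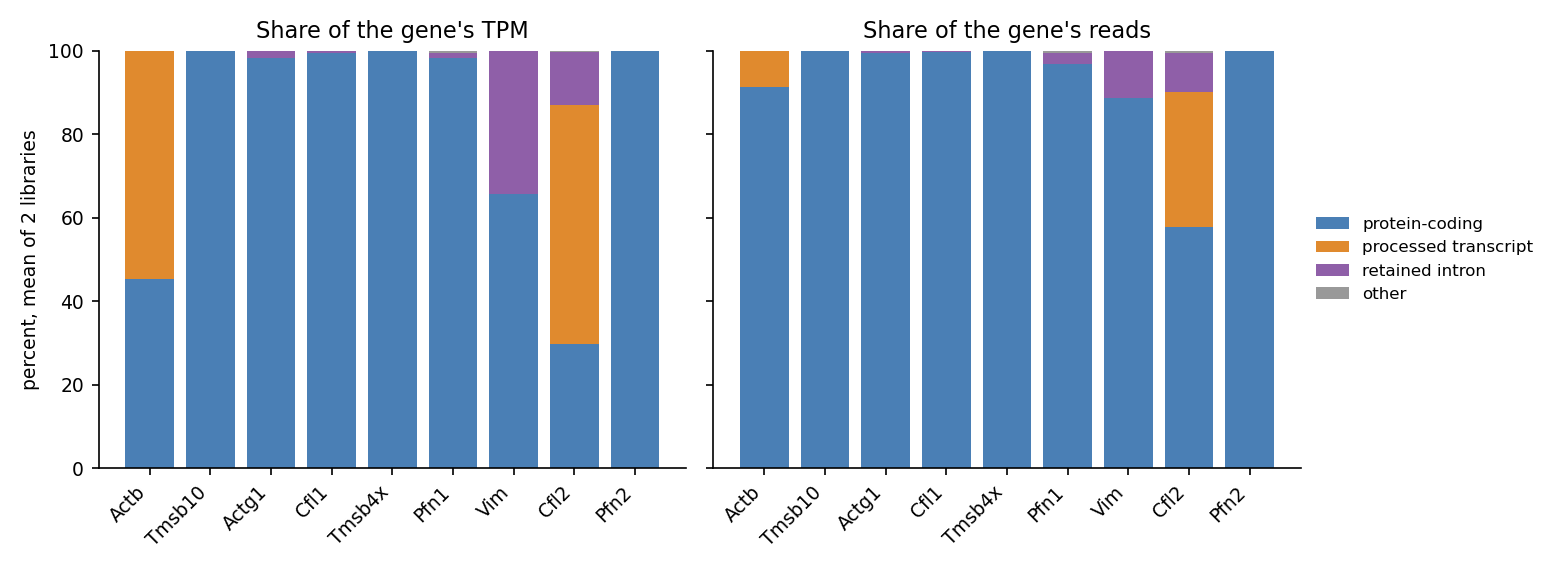
Share of each gene's TPM (left) and reads (right) in protein-coding transcripts, processed transcripts, retained introns and other classes, in percent, as means of 2 libraries. Noncoding classes fill 54.7% of the TPM of Actb, 70.4% of that of Cfl2 and 34.4% of that of Vim, and a smaller part of their reads.

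The annotation changed the level of 2 of the 9 genes past 1.5-fold in both libraries, and both were higher in M21. Actb was 1.85-fold and 1.96-fold higher than in M4 (5288 and 5505 TPM), and Cfl2 was 1.90-fold and 1.93-fold higher (59.2 TPM in both). Of 14921 genes measured in both annotations, 6.05% passed 1.5-fold in either direction and 4.82% were higher in M21. The median gene was at 0.951 and 0.948 of its M4 level, and Actg1, Pfn1, Tmsb4x, Tmsb10 and Vim followed it, with mean ratios between 0.936 and 0.947. Cfl1 stood at 1.14 in replicate 1 and 1.15 in replicate 2, and Pfn2 at 0.898 and 0.896. By reads none of the 9 passed 1.5-fold, while 3.44% of genes did. The order of the 9 in M4 TPM differed from that in M21 only in that Pfn2 stood above Cfl2.

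**Figure D4:**
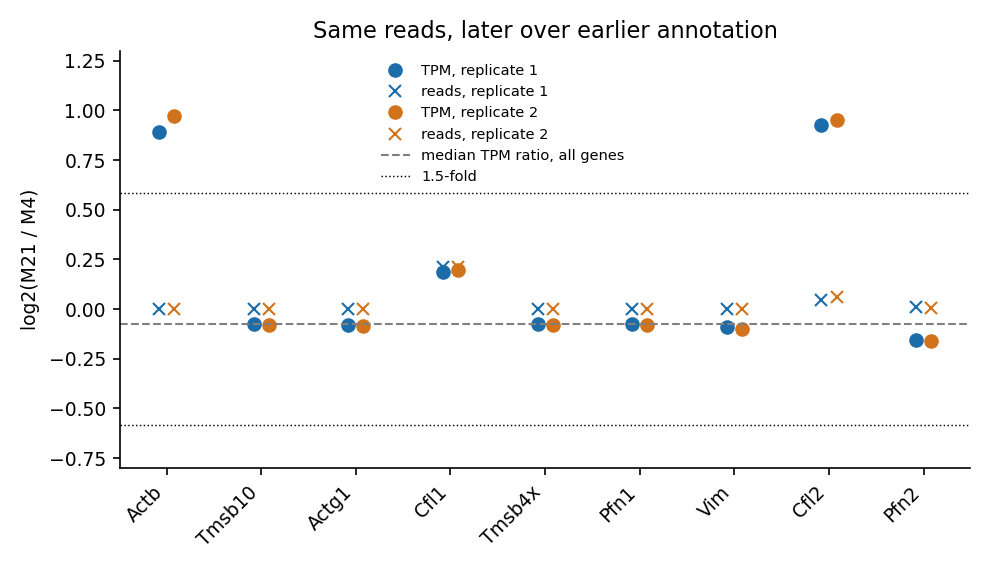
Log2 ratio of the M21 over the M4 value of each gene, for TPM (circles) and reads (crosses), in each library, with the median TPM ratio over all genes (dashed) and 1.5-fold (dotted). Only Actb and Cfl2 pass 1.5-fold in TPM, and no gene does in reads.

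Some of these levels also rest on sequence shared with other genes. Of the 1853 windows of 100 bases in Actg1-202, 946 (51.1%) occur unchanged in 6 annotated pseudogenes, and of the 471 in Tmsb10-203, 131 (27.8%) occur in other entries. The reads given to those entries were few, 427 and 385 over the 6 pseudogenes of Actg1 and 97.6 and 139 over the 2 entries of Tmsb10. Gm12715 led the first group at a mean of 14.4 TPM, followed by Gm8399 at 4.28 TPM and Actg-ps1 at 0.750 TPM. Gm9844, annotated as protein-coding, and the pseudogene Gm3788 led the second at 14.4 and 11.4 TPM. Near-identical copies make the split of reads between Actg1 or Tmsb10 and these entries uncertain.

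In windows of 100 bases Actb shared 1.10% of its sequence (with Lrrc58 and Gm15725) and Cfl1 2.29% (with Snx32 and Gm6180). Windows of 50 bases, tried after seeing the data, gave 14.2% for Actb, 20.5% for Cfl1, 63.5% for Tmsb10 and 56.7% for Actg1. Lrrc58 stood at 54.7 TPM, Snx32 at 7.64, Gm6180 at 3.29 and Gm15725 at 3.06 TPM on average. Pfn1, Pfn2, Cfl2, Tmsb4x and Vim shared no window of 100 bases, and these were the 5 genes whose expected counts were whole numbers in both libraries. Whole counts in both libraries were found for 63.4% of 15926 genes at a mean of 1 TPM. Within Actg1, 2 coding transcripts shared most of their sequence. Actg1-202 held 62.7% and 66.3% of TPM and Actg1-204 35.3% and 31.6%, but none of the 1728 windows of Actg1-204 is its own. The deposited posterior SD of the reads of Actg1-204 was 827 and 852, beside 26400 and 24421 reads.

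Between the libraries the 9 genes differed little. A difference of 25% means here that the higher library stood at least 25% above the lower. None differed by 25% or more in TPM, against 17.7% of 15926 genes at a mean of 1 TPM and 1.49% of 1748 genes at a mean of 100 TPM. Since all 9 stand above 100 TPM, a count of 0 is near the background of abundant genes. In replicate 2, 7 were higher and 2 (Pfn2 and Vim) lower in TPM, and all 9 had more reads. The largest differences were those of Actb and Tmsb10, each with a log2 ratio of replicate 2 over replicate 1 of 0.14. On counts scaled by TMM library sizes, Tmsb10 kept 0.13 while Actb had 0.05. Over genes at a mean of 100 TPM the median absolute log2 difference was 0.06. Scaled to spike-in reads instead, all 9 were past 25%, as were 13868 of 15926 genes, and the median gene shifted by 0.52 on the log2 scale.

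**Figure D5:**
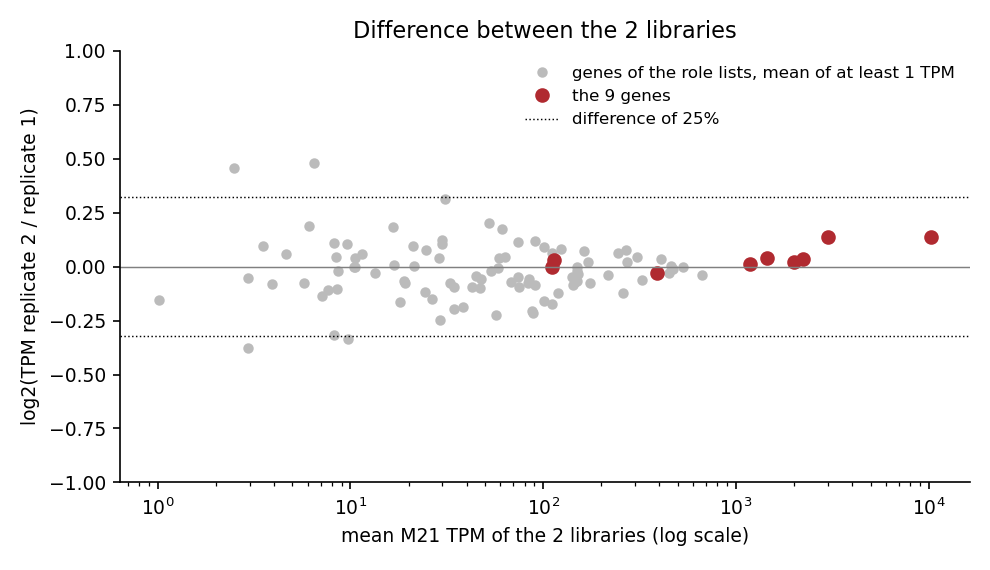
Log2 ratio of TPM in replicate 2 over replicate 1 against the mean TPM (log axis), for the 9 genes in red and for genes of the actin and filament lists in grey, with dotted lines at a difference of 25%. The 9 genes lie between the dotted lines, and 1 list gene, Prph, lies beyond the top of the plot.

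The genes around these 9 were measured from 11 lists by role, with 99 of 101 symbols found. The missing symbols were Mkl1 and Mkl2, older names of Mrtfa and Mrtfb, which were found. Of the 99, 92 reached 1 TPM in each library. The median level over the lists was 42.7 TPM. In TPM, Actb, Tmsb10, Actg1, Cfl1, Tmsb4x and Pfn1 each stood above every gene of these lists. In reads, 3 list genes (Flna, Fscn1 and Tpm4) stood above Tmsb4x and Pfn1 in both libraries, and Flna above Tmsb10 in replicate 1. Between the libraries 5 of 94 tested genes differed by 25% or more (5.32%), and the median log2 ratio was -0.03. Over all genes that share was 17.7% at a mean of 1 TPM, 7.57% at 5 TPM and 1.49% at 100 TPM. Since the share falls with level, 5.32% at a median of 42.7 TPM is not read as a trait of the lists. Of the 5 genes, 3 were higher and 2 lower in replicate 2. Higher were Tmsb15l, Actr3b and Prph, and lower were Flnc and Myh14, all at means under 10 TPM and named after their values were seen. Myh14 had 162 reads in replicate 1 and 163 in replicate 2, so its reads did not fall. The reads of the others changed in the same direction as their TPM.

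Among the actins of muscle, the cardiac alpha-actin gene Actc1 was highest at 326 ± 10.1 TPM and the smooth muscle gene Acta2 next at 101 ± 8.0 TPM, while the gamma gene Actg2 was lowest at 1.01 ± 0.0778 TPM. All 4 muscle actins summed to 535 and 497 TPM, less than Actg1 alone. Beyond the thymosins described, Tmsb15b2 reached 74.2 ± 4.19 TPM and Tmsb15b1 29.9 ± 1.51 TPM. The testis-enriched profilin gene Pfn3 was lowest at 0.170 TPM, a value that rests on 2 reads in replicate 1 and 1 read in replicate 2. Actc1 is itself 1 of the 5 muscle markers, which summed to 750 and 730 TPM. The part of muscle cells in the level of Cfl2 was not tested.

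Of the other depolymerising and recycling factors, Dstn (destrin, a relative of the cofilins) stood at 243 ± 7.56 TPM and the cofilin cofactor Wdr1 at 149.5 ± 0.0283 TPM, with the gelsolin relative Scin lowest at 5.76 TPM. Dstn was thus above Cfl2 and below Cfl1 in both libraries. The enzymes that phosphorylate or dephosphorylate cofilin had a lower median, 10.5 TPM against 44.8 TPM for the list of these turnover factors. They were led by the LIM kinase gene Limk2 at 47.6 ± 1.39 TPM and the phosphatase gene Pdxp at 29.0 ± 0.573 TPM. The slingshot phosphatase gene Ssh2 was lowest at 7.60 TPM. All 8 enzymes reached 1 TPM in both libraries.

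Filament nucleation was represented by 10 of 10 genes of the Arp2/3 complex, which starts branches, led by Arpc2 at 272 ± 2.94 TPM and Arpc4 at 270.1 ± 10.3 TPM, with Actr3b lowest at 2.48 TPM. Nucleation promoters and formins were led by cortactin (Cttn) at 147 ± 5.30 TPM and N-WASP (Wasl) at 63.3 ± 1.44 TPM, and the formin Fmnl1 was lowest at 0.845 TPM. Capping genes were led by Capzb at 306 ± 6.95 TPM and Capza1 at 149.6 ± 4.84 TPM, and Tmod1 was lowest at 3.91 TPM. Crosslinkers were led by the bundling protein gene Fscn1 at 459 ± 0.856 TPM and by filamin A (Flna) at 259 ± 15.4 TPM, with Flnc lowest at 9.74 TPM.

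The light chain gene Myl6 at 669 ± 12.8 TPM and the tropomyosin gene Tpm4 at 533 ± 0.488 TPM were the highest genes of the 11 lists, and Myh14 was the lowest of their list at 2.93 TPM. In TPM, Pfn1 stood above Myl6 in both libraries. Intermediate filament genes other than Vim were led by lamin B1 (Lmnb1) at 151 ± 2.71 TPM and the basal keratin gene Krt14 at 120 ± 7.21 TPM, with Gfap lowest at 0.260 TPM. Vim, at 390.3 ± 5.36 TPM, was above all 12 of them.

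Cytoplasmic actin genes are textbook targets of serum response factor (Srf), whose activity follows the pool of free actin monomers through the coactivators Mrtfa and Mrtfb. Their transcripts stood at 9.54 ± 0.495 TPM for Srf, 16.7 ± 1.5 TPM for Mrtfa and 18.9 ± 0.601 TPM for Mrtfb. The site of the factor, the CArG box, was searched on both strands in the 250 bases before each RefSeq start (RefSeq, GRCm38.p6), as 2 C, then 6 bases of A or T, then 2 G. Actb has no entry in that table and was not searched. Of the other 8 genes, Actg1 alone held 1, beginning 90 bases before its start, against 1.62% of 27025 genes. The 60 bases around it lie at chr11:120348551-120348610 on the minus strand, upstream of every M21 exon of Actg1, with the box in capitals.
Actg1 promoter: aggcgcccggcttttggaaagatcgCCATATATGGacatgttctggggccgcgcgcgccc
The letters TATAAA or their reverse TTTATA occurred before the RefSeq start of 1 of these 8 genes, Vim, against 14.3% of genes. That match begins 32 bases before the RefSeq start of Vim. The whole window searched there (chr2:13574061-13574360) lies inside the first exon of Vim-201, which starts at 13573952. For Vim-201, the most read coding transcript, the match is therefore not upstream sequence. A match is a description of sequence, and binding was not measured here.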

How the data were processed

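The 2 biological replicates of 1 tissue and age, so named in the labels, were compared as libraries and not as conditions. Per the deposited tables, laid out as RSEM writes them, the authors estimated expected counts per gene and transcript and normalized them to TPM. FPKM, also deposited by the authors, served as an alternative for levels. The deposited transcript tables give each transcript's percent of its gene. Per the README deposited with the samples, the same reads were quantified with GENCODE M21 (the main annotation here) and M4 on mm10. For the aligner and the program version, the sources used here give nothing.

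Gene shares exclude spike-in and tRNA entries, which held 7.35% and 5.13% of TPM. Transcript shares, annotation ratios (deposited M21 over M4 values) and library ratios of TPM were computed with pandas 2.3.3, with genes at a mean of 1 TPM as background. Calls were a 25% difference between libraries, 1.5-fold between annotations in both libraries, and 25% of TPM outside protein-coding transcripts. The difference between libraries was taken as a percentage of the lower library. edgeR 4.0.16 and DESeq2 1.42.0 gave library scalings of rounded expected counts only. Identical windows of 100 bases were searched on both strands of M21 transcripts. The functions were tested on simulated data.

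All 9 members are named, and of each role list the 2 most abundant genes and the lowest, members past 25% at 10 TPM or more, and the 3 most abundant entries sharing sequence with a member. The members and lists were chosen with earlier results of these data known. Of the 9 genes, 8 matched the RefSeq promoter table.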

Additional observations from a re-analysis of the deposited data

How the results depend on the processing

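Ratios within pairs kept their direction under every alternative run, but their size depended on the scale. Counts not divided by length gave mean log2 ratios of 1.23 for Actb/Actg1, 2.21 for Pfn1/Pfn2, 3.61 for Cfl1/Cfl2 and -0.54 for Tmsb4x/Tmsb10, against 2.21, 3.42, 4.14 and -1.05 in M21 TPM. M4 TPM gave 1.20 for Actb/Actg1, 3.34 for Pfn1/Pfn2 and 4.89 for Cfl1/Cfl2, and protein-coding transcripts alone gave 1.10, 3.40 and 5.89. Rescaling TPM to genes of the nucleus moved the mean of Actb to 11242 TPM. By counts, 4 of 9 genes kept their place in the order. Scaled to ERCC reads, 9 genes differed by 25% between libraries, against 0 under the other scalings. No gene passed between annotations at 2-fold or by expected counts (0 in both). Only 1 gene had 25% outside protein-coding transcripts by expected counts (Cfl2), and 1 in the M4 tables (Vim). Windows of 50 bases, an alternative chosen after seeing the data, gave 50 entries that share sequence with the 9 genes, against 12. Over all genes, the share that differed between libraries was 7.57% at a mean of 5 TPM and 46.6% with no filter. With 1 group of 2 pools, an SD is imprecise, and splits of reads among overlapping entries rest on the annotation used. The cause of each change was not tested.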

Other observations

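Prph, which encodes peripherin, an intermediate filament protein of peripheral neurons, was listed at 0.150 TPM in replicate 1 and 4.03 TPM in replicate 2. Of 4 neuronal markers tested, Tubb3 (7.13 and 11.5 TPM) and Stmn2 (5.66 and 8.79 TPM) were also higher by 25% or more in replicate 2, while Map2 (25.6 and 22.6 TPM) and Dcx (8.14 and 7.11 TPM) were lower there by less than 25%. Over all genes at a mean of 1 TPM, 17.7% differed by 25% or more. The 5 neuronal markers summed to 46.5 and 50.1 TPM. Of 5 macrophage markers, 3 were higher by 25% or more in replicate 1 than in replicate 2, namely Tyrobp, Csf1r and Ptprc. Their reads were 141 and 108 for Tyrobp and 581 and 506 for Csf1r. Ptprc had 92 reads in each library, so its reads did not fall. Pf4, the most abundant of the 5 markers, stood at 42.9 and 43.2 TPM, and the list summed to 82.9 and 75.3 TPM. None of the 9 genes differed by 25% beside these values, and the part of either cell type in their levels was not tested. These genes were named after their values were seen.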
